A study of Mus musculus with 48 samples.

Results

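Adult sensory neurons of the dorsal root ganglion (DRG) were given a pool of siRNAs against Atf3 and compared with neurons given a control pool. Atf3 encodes a basic leucine zipper transcription factor of the ATF and CREB family. It is scarce in uninjured sensory neurons, is induced when their axons are cut, and binds DNA alone or with partners such as Jun. In injured ganglia it is a widely used marker of axotomised neurons and has been tied to axon regrowth, and in many cell types it is also a target of the integrated stress response, which runs from kinases of eIF2α through the related factor Atf4.

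The data were 8 of the 48 RNA-seq libraries of the series, 4 labelled siAtf3 and 4 labelled siCONTROL, chosen by their treatment label. Both groups were neuron-enriched cultures of dissociated wild-type adult mouse DRG, kept in Neurobasal-A with B27, transfected at once with ON-TARGETplus pools and harvested at 42 h. Both therefore carried the injury of dissociation, the culture and a transfection, and differed by the pool. Atf3 was targeted by 1 pool, so loss of Atf3 and other effects of that pool were not separated, and protein was not measured. Nothing in the labels ties a replicate to an animal or a dish. The p-values therefore measure only the spread between libraries, which may be technical. That spread was estimated from these 8 libraries fitted together with those of the other knockdowns of the series.

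The siAtf3 libraries held 4848841 to 6087596 counts and the siCONTROL libraries 3437120 to 6621566. Levels are counts scaled to a common library total (CPM) on the scale of the deposited counts, and are compared between groups for 1 gene at a time. In a principal component analysis of the 8 libraries the first component (23.4% of the variance) separated the groups, and the second (16.9%) set siCONTROL replicates 1 and 4 furthest apart. Rank correlations between libraries were 0.973 to 0.981 within a group and 0.965 to 0.974 between groups. Folds and adjusted p are from edgeR's quasi-likelihood F test over 14876 genes with Benjamini-Hochberg adjustment, and a gene was called at an adjusted p under 0.05. The test gives no standard error (SE). Each SE was derived as the size of the log2 fold change divided by the square root of F, and is rough for scarce genes.

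The targeted transcript was measured first. Atf3 stood at 246, 209, 243 and 168 CPM in the siAtf3 libraries, against 1285, 1353, 1096 and 1250 CPM in the siCONTROL libraries. The highest siAtf3 library was far below the lowest siCONTROL library. The fall was 5.76-fold (log2 fold change -2.53 ± 0.0991 SE, adjusted p = 2.35e-17). In the other 6 knockdowns of the series Atf3 averaged 987 to 1192 CPM. Cells taken at time 0, before culture, give a point of reference without a test: on a scaling shared by the 3 groups, Atf3 averaged 210.4 CPM in siAtf3 and 1211 CPM in siCONTROL, against 197 CPM at time 0.

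With Atf3 knocked down, 595 genes rose and 1114 fell of the 14876 tested. These are 4.0% and 7.49% of all genes, 11.5% together. Most shifts were small: the median log2 fold change was 0.48 among genes that rose and -0.54 among genes that fell, and only 80 genes rose and 167 fell at least 2-fold (0.538% and 1.12%). The libraries of both groups did not overlap for 1109 genes that were higher in siAtf3 (7.45%) and 1390 that were lower (9.34%). Over all genes tested the median log2 fold change was 0.01.

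**Figure D1:**
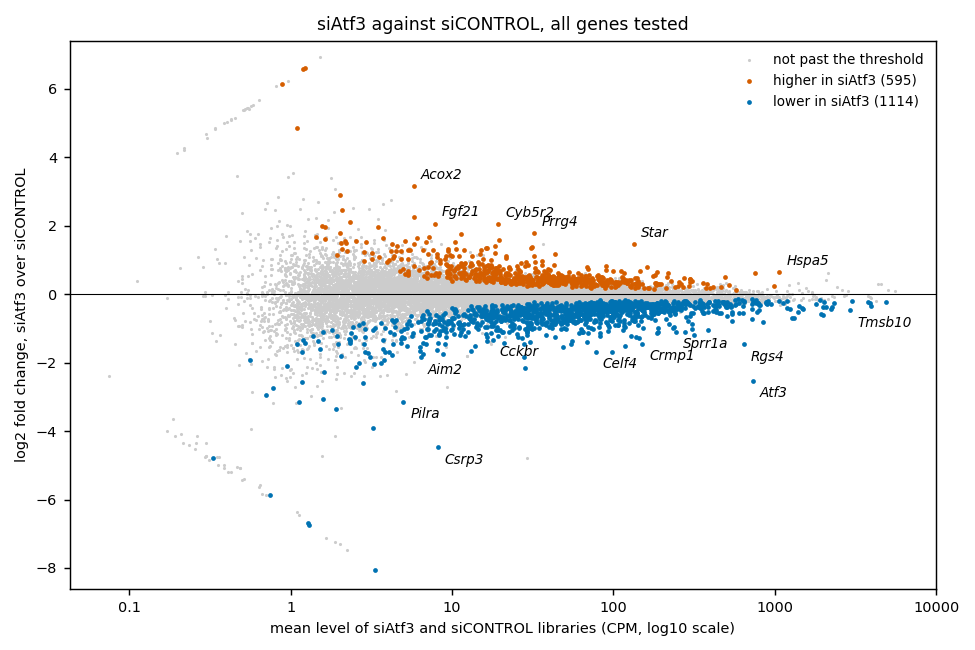
Log2 fold change of siAtf3 over siCONTROL (vertical axis) against the mean level of the 8 libraries in CPM (log10 horizontal axis), 1 point a gene. Orange points are the 595 genes that rose and blue points the 1114 that fell. Genes on the slanted outer lines have 0 counts in every library of 1 group, and their plotted fold depends on the prior count.

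The genes that fell most, by the rule for large non-overlapping changes, were mostly scarce. Csrp3, a muscle LIM protein that is also made by injured sensory neurons, had 0.606, 0, 0.566 and 1.54 CPM in siAtf3, against 21.9, 18.9, 11.3 and 10.2 CPM in siCONTROL (22.2-fold lower, log2 fold change -4.47 ± 0.836 SE, adjusted p = 0.00036). Pilra, an inhibitory receptor best known from myeloid cells, had 1.01, 1.75, 0.566 and 0.512 CPM in siAtf3, against 10.8, 8.45, 6.49 and 10.2 CPM in siCONTROL (8.88-fold lower, log2 fold change -3.15 ± 0.402, adjusted p = 1.56e-06). Both genes were close to absent in every siAtf3 library.

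Sprr2i, a small proline-rich protein of the cornified envelope, had counts in 1 siAtf3 library only (1.43 CPM), against 3.60 to 9.55 CPM in siCONTROL (adjusted p = 0.0041). Lce1a2, another cornified envelope gene, likewise had counts in 1 siAtf3 library (1.41 CPM), against 1.62 to 7.83 CPM in siCONTROL (adjusted p = 0.0234), and its call was lost without any of siAtf3 replicates 2, 3 and 4 or siCONTROL replicate 2. Hist1h4n, an H4 histone gene, had 0 counts in all 4 siAtf3 libraries, against 4.79, 11, 4.27 and 6.49 CPM in siCONTROL. That is at least 49.5-fold lower against a floor of 3 counts over the siAtf3 group. Hist1h4n was also at 0 in libraries of other knockdowns, with 0, 0, 2.62 and 0 CPM in siKlf6 and 0, 4.39, 0 and 0 CPM in siAlyref. In siAtf4 it stood at 5.86 to 17.5 CPM. H4 genes are near-identical, so reads may have been shared between copies, and its level is uncertain.

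Aim2, the cytosolic DNA sensor of an inflammasome, averaged 2.74 ± 1.41 CPM in siAtf3 and 10.05 ± 4.05 CPM in siCONTROL (SD, n = 4 each; 3.59-fold lower, adjusted p = 0.0013). The other genes of this rule were 3.81-fold to 5.89-fold lower: the cation channel Trpm1 (not called by DESeq2), the Ras GTPase-activating protein Rasal1, the transmembrane tryptase Tpsg1, Fndc9 and Methig1. Methig1 belongs to a family of close paralogs, which counting by transcript may split. All of these stood at a few CPM, so a few reads moved them.

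Among the largest rises by the same rule, Acox2, a peroxisomal oxidase of branched fatty acids and bile acid intermediates, had 8.29, 11, 14.3 and 8.19 CPM in siAtf3, against 0.899, 1.10, 1.2 and 1.39 CPM in siCONTROL (8.88-fold, log2 fold change 3.15 ± 0.635, adjusted p = 0.000849). Cyb5r2, a cytochrome b5 reductase, had 30.3, 22.1, 40.4 and 32.1 CPM in siAtf3, against 5.39, 8.76, 10.1 and 5.33 CPM in siCONTROL (4.10-fold, adjusted p = 3.59e-07). Prrg4, a transmembrane protein with a γ-carboxyglutamate domain, had 45.9, 40.7, 57.6 and 56.3 CPM in siAtf3, against 12.3, 10.6, 16.2 and 18.8 CPM in siCONTROL (3.46-fold, adjusted p = 7.45e-08). For each of these the lowest siAtf3 library was above the highest siCONTROL library, as the rule required.

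Extl1, a glycosyltransferase of heparan sulfate synthesis, rose 4.79-fold to 9.57 ± 1.22 CPM in siAtf3, against 2.00 ± 0.568 CPM in siCONTROL (SD, n = 4 each; adjusted p = 0.000253). Fgf21, a secreted hormone induced by mitochondrial and amino acid stress, had 7.28, 13.7, 10.6 and 18.8 CPM in siAtf3, against 3.0, 2.19, 2.05 and 5.10 CPM in siCONTROL (4.16-fold, log2 fold change 2.06 ± 0.542, adjusted p = 0.0106), and was not called by limma-trend. Stc2, a stress-induced glycoprotein hormone, rose 3.89-fold (5.51 ± 1.16 CPM in siAtf3 and 1.42 ± 0.453 CPM in siCONTROL, adjusted p = 0.00145). The chitin-binding receptor Fibcd1 rose 3.41-fold (adjusted p = 0.00115; not called by DESeq2).

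Other risers of the same rule were scarce and rested on few reads. Slamf9, a leukocyte surface receptor, stood at 2.02 to 5.29 CPM in siAtf3 and 0 to 0.783 CPM in siCONTROL (adjusted p = 0.0229). Egf, the epidermal growth factor gene, stood at 2.43 to 5.47 CPM in siAtf3 and 0.626 to 1.03 CPM in siCONTROL (adjusted p = 0.0341). Calls of Slamf9, Egf, Rexo5 and Dlec1 were lost when any of 4 to 6 of the 8 libraries was left out, with adjusted p up to 0.0837, 0.102, 0.0994 and 0.148. Atad3aos, an antisense transcript, had 0 counts in all siCONTROL libraries and 0.636 to 4.72 CPM in siAtf3. That is at least 16.2-fold higher against 3 counts over the siCONTROL group, and the call was lost without siAtf3 replicate 3 or siCONTROL replicate 2. Atad3aos also stood at 1.36 to 5.08 CPM in siAtf4 and 1.70 to 4.55 CPM in siAlyref, with 0 CPM in some libraries of each other knockdown. Rexo5 stood at 1.36 to 6.04 CPM in siAtf3, 3.49 to 6.41 CPM in siAtf4 and 0.421 to 2.90 CPM in siAlyref. Dlec1 stood at 1.32 to 5.41 CPM in siAtf3, 1.44 to 3.05 CPM in siAtf4 and 1.01 to 1.39 CPM in siKlf6. These 3 rises were not particular to siAtf3. Atad3aos, Slamf9 and Dlec1 were not called by DESeq2, and Egf was not called by limma-trend.

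**Figure D2:**
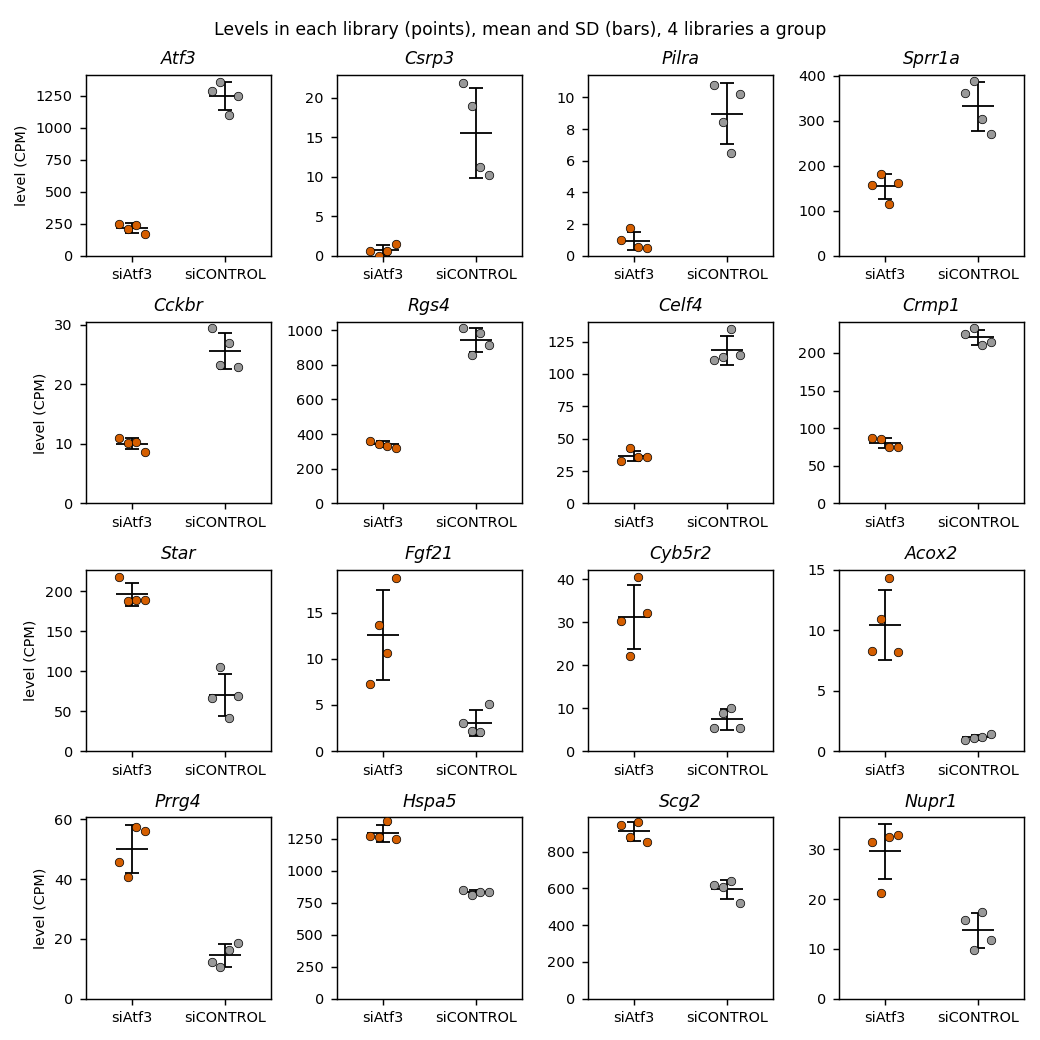
Level in CPM (vertical axes, from 0) of 16 genes in the 4 siAtf3 libraries (left, orange) and the 4 siCONTROL libraries (right, grey), with the mean and SD as bars. In all 16 the groups do not overlap, for example 168 to 246 CPM in siAtf3 and 1096 to 1353 CPM in siCONTROL for Atf3.

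By gain in CPM among genes whose groups did not overlap, the abundant genes that rose were led by Hspa5, the main chaperone of the endoplasmic reticulum. Hspa5 had 1269, 1264, 1387 and 1245 CPM in siAtf3, against 853, 810, 834 and 833 CPM in siCONTROL (1.55-fold, log2 fold change 0.63 ± 0.0718, adjusted p = 2.4e-07). Scg2, a granin of dense-core vesicles, had 944, 881, 963 and 850 CPM in siAtf3, against 618, 606, 639 and 518 CPM in siCONTROL (1.53-fold, adjusted p = 1.36e-05). Ddit3, the stress factor CHOP, had 593, 499, 681 and 517 CPM in siAtf3, against 400.1, 392, 444 and 373 CPM in siCONTROL (1.42-fold, adjusted p = 0.0035). The groups were clear of each other for all 3 genes.

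Star carries cholesterol into mitochondria for steroid synthesis. It had 218, 188, 189 and 189 CPM in siAtf3, against 66.2, 105, 41.7 and 68.8 CPM in siCONTROL (2.77-fold, log2 fold change 1.47 ± 0.206, adjusted p = 7.07e-06). At time 0 Star averaged 0.393 CPM on the shared scaling, against 191 CPM in siAtf3 and 68.5 CPM in siCONTROL, with no test. Chka, a choline kinase of phospholipid synthesis, rose 1.53-fold (adjusted p = 1.94e-05). Syt4, a vesicle protein of the synaptotagmin family, rose 1.17-fold (adjusted p = 0.032), a call lost when any of 5 of the 8 libraries was left out.

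By loss in CPM among genes whose groups did not overlap, Atf3 was followed by genes of the cytoskeleton. Tmsb10, an actin-sequestering thymosin, had 2751, 2284, 2387 and 2314 CPM in siAtf3, against 3388, 3657, 3443 and 3049 CPM in siCONTROL (1.39-fold lower, adjusted p = 0.000455). Tuba1a, the main neuronal α-tubulin, had 3618, 3558, 3382 and 3281 CPM in siAtf3, against 4564, 4525, 4432 and 4042 CPM in siCONTROL (1.27-fold lower, adjusted p = 6.51e-05). Losses of Tmsb4x (1.34-fold), Actg1 (1.19-fold) and the annexin partner S100a10 (1.5-fold) completed the 6. Nefl lost more CPM than these 3, but its libraries overlapped, and it is given with the neurofilaments. In a culture of mixed cells, a lower level can come from fewer cells of a type or from less RNA per cell, and these cannot be told apart here.

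Some of the smallest adjusted p belonged to genes outside the naming rule, picked after their values were seen. Ppp2r2c, a neuronal regulatory subunit of protein phosphatase 2A, had 61.0, 61.7, 58.5 and 61.1 CPM in siAtf3, against 173, 187, 167 and 172 CPM in siCONTROL (2.89-fold lower, log2 fold change -1.53 ± 0.0599, adjusted p = 2.35e-17). Tspan7, a neuronal tetraspanin, was 2.08-fold lower (249.9 ± 9.10 CPM in siAtf3 and 520 ± 21.9 CPM in siCONTROL, adjusted p = 1.57e-15). Pip4k2a, a phosphoinositide kinase, was 3.56-fold lower (12.2 ± 3.17 CPM in siAtf3 and 43.3 ± 4.38 CPM in siCONTROL, adjusted p = 1.12e-09). The spread within each group was small beside these differences, as a choice by small adjusted p requires.

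Gene groups were then described by 52 lists. Each is given by how many tested members rose or fell, to be read against 4.0% and 7.49% of all genes, and by its median log2 fold change, to be read against 0.01 for all genes. The lists were drawn up with earlier results on these libraries known, and no test of a list was made.

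Regeneration-associated genes, those that injured peripheral neurons switch on as they regrow, gave the largest share of falls. Of 33 tested, 20 fell and 1 rose, with a median log2 fold change of -0.36, and 4 members were above 0. Atf3 itself is one of the 20. The summed level of the 33 was 9601 to 10670 CPM in siAtf3 and 13210 to 14720 CPM in siCONTROL. These sums include Atf3, the target, whose mean was 216 CPM in siAtf3 and 1246 CPM in siCONTROL. The 12 members that were not called summed to 2113 to 2218 CPM in siAtf3 and 2069 to 2215 CPM in siCONTROL. That sum leaves out the called members, so its overlap is no check of its own.

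Beside Csrp3, the largest falls of the list were in a receptor and a small proline-rich protein. Cckbr, the cholecystokinin B receptor that appears on injured sensory neurons, had 10.9, 10.2, 10.4 and 8.70 CPM in siAtf3, against 29.4, 23.2, 26.8 and 22.9 CPM in siCONTROL (2.54-fold lower, adjusted p = 1.45e-06). Sprr1a, which promotes neurite outgrowth, had 158, 183, 115 and 162 CPM in siAtf3, against 362, 389, 304 and 272 CPM in siCONTROL (2.15-fold lower, adjusted p = 1.29e-05). Itga7, an integrin subunit that binds laminin, averaged 395 ± 49.2 CPM in siAtf3 and 688 ± 65.6 CPM in siCONTROL (SD, n = 4 each; 1.74-fold lower, adjusted p = 6.06e-07). Both Sprr1a and Cckbr were nearly absent at time 0 (0.512 and 0.517 CPM), against 150.2 and 9.77 CPM in siAtf3 on the shared scaling, with no test.

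Growth cone and outgrowth genes of the list shifted less. Gap43, the growth-associated membrane protein, fell 1.35-fold (617 ± 62.5 CPM in siAtf3 and 833 ± 44.3 CPM in siCONTROL, adjusted p = 0.00173). Anxa1 fell 2.02-fold (adjusted p = 0.000957), the transcription factor Sox11 1.47-fold (adjusted p = 0.00118), the Fn14 receptor Tnfrsf12a 1.43-fold (adjusted p = 1.36e-05) and the small heat shock protein Hspb1 1.36-fold (adjusted p = 0.00745). Stmn2, Basp1, Tubb3, Tubb6, Flrt3, Gadd45a, Klf6 and Cap1 fell 1.21-fold to 1.35-fold. The calls of Socs3 and Cd44 were lost when any of 6 libraries was left out. So was that of Chl1, an adhesion molecule and the single riser (1.28-fold, adjusted p = 0.038), when any of 5 was left out.

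Other well-known injury genes did not pass. Jun stood at 245 to 325 CPM in siAtf3 and 275 to 323 CPM in siCONTROL (log2 fold change -0.04 ± 0.0811 SE, adjusted p = 0.842). Ecel1, an injury-induced endopeptidase, had a log2 fold change of -0.26 ± 0.12 (adjusted p = 0.182). Gpr151, an orphan receptor, had a log2 fold change of -0.28 ± 0.0943 (adjusted p = 0.0504), just outside the threshold. The bone morphogenetic protein mediator Smad1 had -0.18 ± 0.0756 (adjusted p = 0.135).

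**Figure D3:**
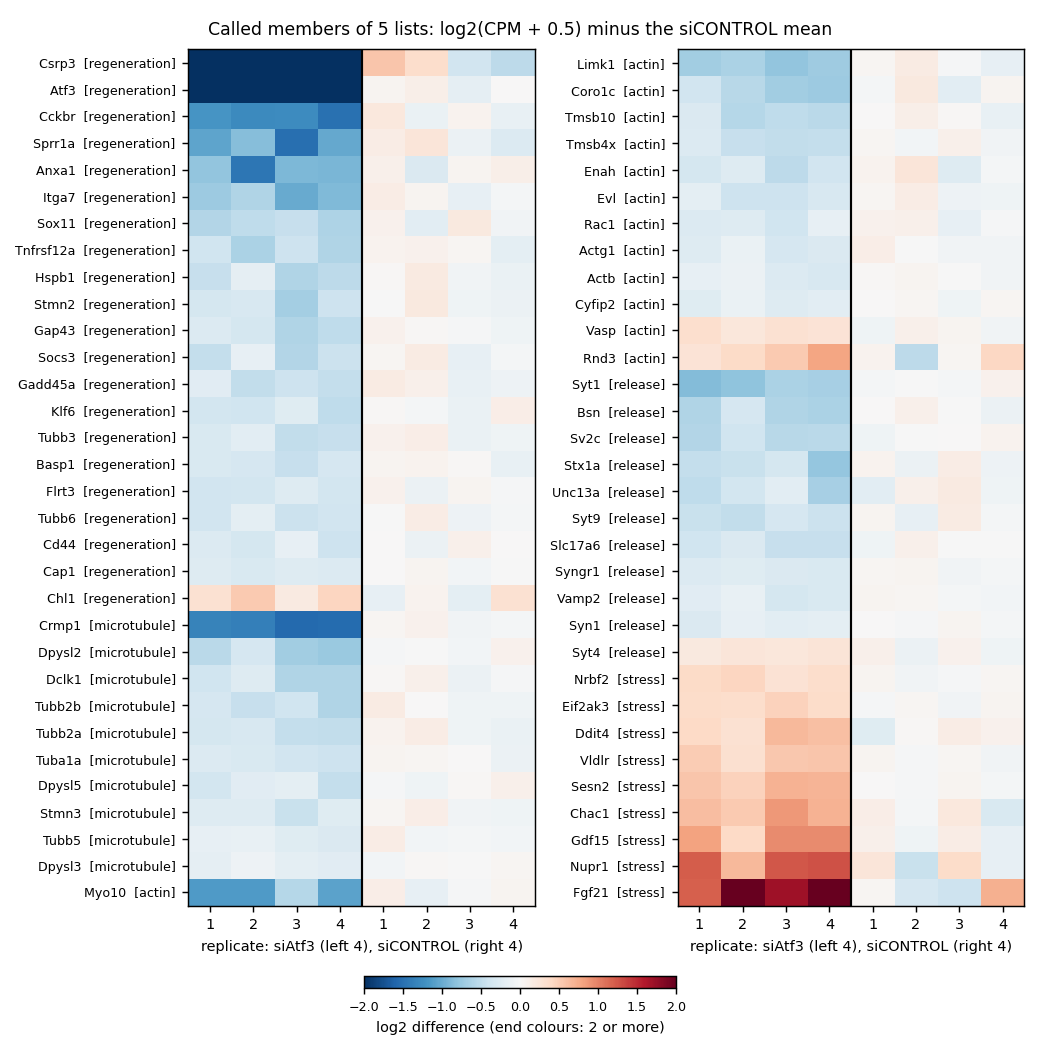
Colour gives log2(CPM + 0.5) minus the siCONTROL mean for each called member of 5 lists (rows) in the 4 siAtf3 libraries (left of the line) and the 4 siCONTROL libraries (right). Regeneration, microtubule, actin and release members are mostly blue (lower) in siAtf3, with Chl1, Vasp, Rnd3 and Syt4 as exceptions, and the 9 stress members shown are red (higher).

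The cytoskeleton of the growing axon followed the same direction in its member counts, in part through shared members. Stmn2, Tubb3, Tubb6, Gap43, Basp1 and Cap1 of the regeneration list are counted again in the microtubule or actin list. Of 33 tubulins and microtubule regulators, 13 fell and 0 rose (median -0.18). The largest change was in Crmp1, a collapsin response mediator that links semaphorin signals to microtubules, at 86.7, 85.5, 74.5 and 75.6 CPM in siAtf3, against 225, 233, 209.9 and 215 CPM in siCONTROL (2.74-fold lower, log2 fold change -1.45 ± 0.0746, adjusted p = 1.13e-14). Its relative Dpysl2 fell 1.49-fold (adjusted p = 6.48e-05) and Dpysl5 less. The call of Dpysl3 was lost without any of 5 libraries, without a filter on low counts and with the 8 libraries alone. Among tubulins, Tubb2b (1.37-fold), Tubb2a (1.33-fold), Tubb3, Tubb5 and Tubb6 fell with Tuba1a, though Tubb5 was not called with the 8 libraries alone. Tubulin isotypes are alike in sequence, so reads may be split between them.

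Of 44 actin and growth cone genes, 14 fell and 2 rose (median -0.15). Myo10, the motor of filopodia tips, had 42.0, 41.7, 62.3 and 43.7 CPM in siAtf3, against 101, 82.6, 90.9 and 95.5 CPM in siCONTROL (1.95-fold lower, adjusted p = 3.36e-07). Limk1, the kinase that switches off cofilin, fell 1.64-fold (adjusted p = 2.63e-06), and Coro1c, Evl, Enah and Rac1 were also called lower. The call of Enah was lost without any of 7 libraries, without a filter on low counts and with limma-trend, and that of Rac1 without siAtf3 replicate 3 or siCONTROL replicate 1 or 2. The risers were Vasp, an actin elongation factor (1.21-fold, adjusted p = 0.0142, lost without siCONTROL replicate 1), and the small GTPase Rnd3 (1.40-fold, adjusted p = 0.028, lost without any of 5 libraries). The neurofilament genes gave 3 falls among 11 tested intermediate filament genes, with Nefl at 1559 ± 378 CPM in siAtf3 and 2401 ± 425 CPM in siCONTROL (adjusted p = 0.0156, lost without siAtf3 replicate 3 or siCONTROL replicate 2).

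Of 35 axonal transport motors and adaptors, 7 fell and 1 rose, and the median was -0.01. Without siAtf3 replicate 3, 4 fell and 0 rose, and the rise was also lost without siAtf3 replicate 4 or siCONTROL replicate 1 or 2. Mapk8ip1 (JIP1), a scaffold that ties JNK kinases to kinesin cargo, fell 1.59-fold (219 ± 17.8 CPM in siAtf3 and 347 ± 23.7 CPM in siCONTROL, adjusted p = 5.26e-07). Trak2, a mitochondrial motor adaptor, fell 1.53-fold (adjusted p = 2.25e-06), and Kif22, a chromosome-bound kinesin, 1.95-fold (adjusted p = 0.000222).

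**Figure D4:**
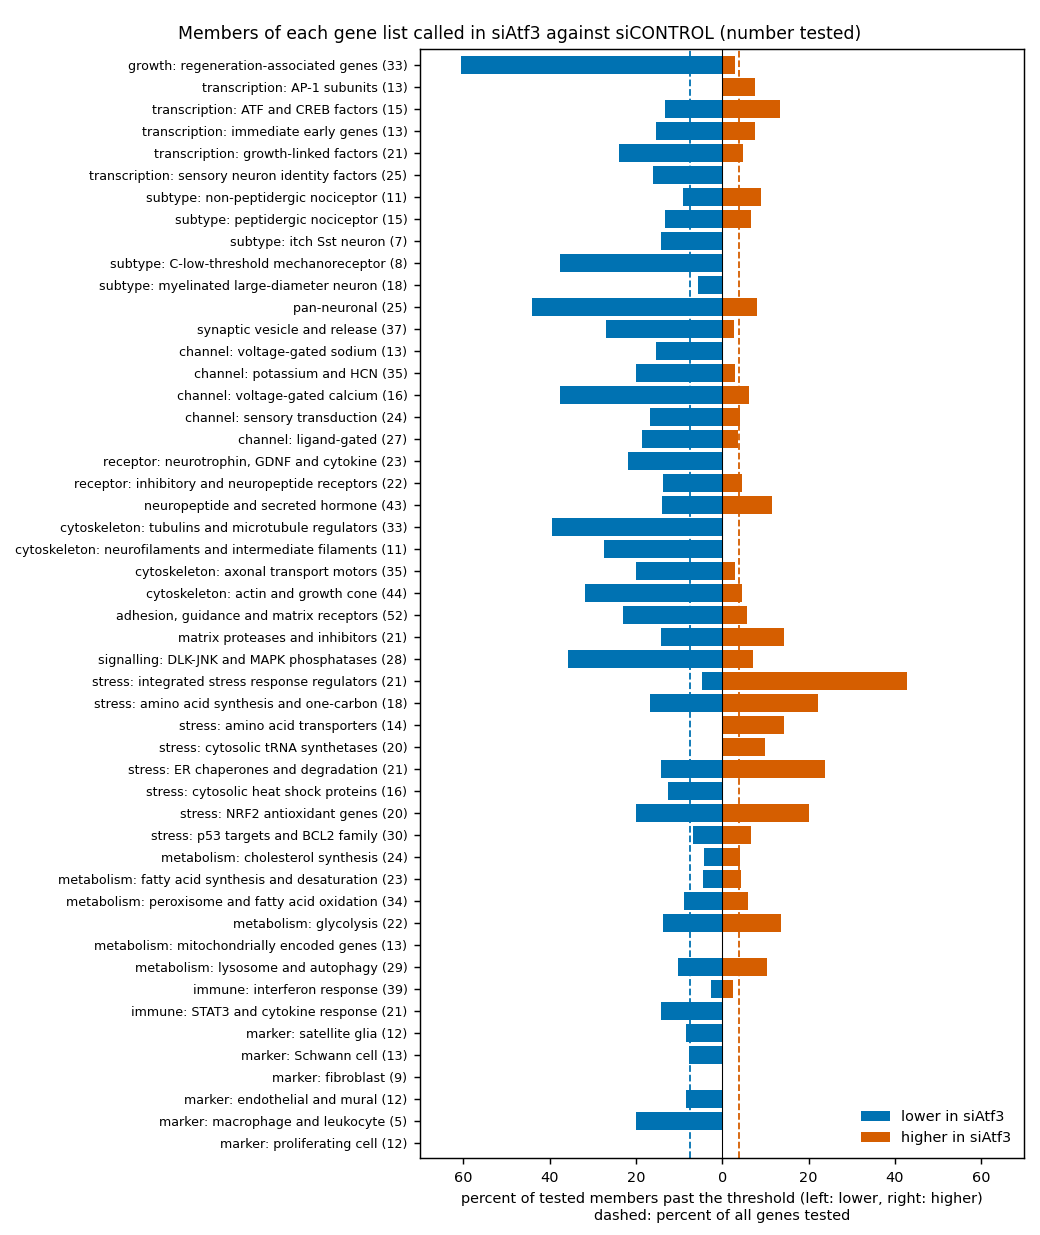
Percent of tested members of each list that fell (blue, to the left) or rose (orange, to the right) in siAtf3 against siCONTROL, for lists with at least 5 members tested (numbers in brackets). Dashed lines mark 7.49% and 4.0%, the percent of all genes that fell and rose. The longest blue bar is that of regeneration-associated genes (20 of 33), the longest orange bar that of integrated stress response regulators (9 of 21).

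Of 52 adhesion and guidance receptors tested, 12 fell and 3 rose (median -0.11). The semaphorin co-receptors Plxna4 (1.81-fold, adjusted p = 3.2e-10) and Plxna2 (1.79-fold, adjusted p = 3.36e-05) fell, as did Rtn4r, the Nogo receptor that restrains axon growth (2.01-fold, adjusted p = 0.000101). Plxnc1, a semaphorin 7A receptor, rose 1.46-fold (42.6 ± 3.67 CPM in siAtf3 and 29.1 ± 2.48 CPM in siCONTROL, adjusted p = 0.00964), and the fibronectin receptor subunit Itga5 rose 1.42-fold (adjusted p = 0.00135).

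Among 21 matrix proteases and inhibitors 3 rose and 3 fell. Mmp19 had 24.3, 24.01, 24.7 and 28.8 CPM in siAtf3, against 16.8, 7.98, 7.35 and 13.4 CPM in siCONTROL (2.30-fold, adjusted p = 8.88e-05). Mmp2, a gelatinase, rose 2.15-fold (adjusted p = 0.00169). Mmp12, the macrophage elastase, fell 1.92-fold (16.0 ± 3.04 CPM in siAtf3 and 30.9 ± 7.29 CPM in siCONTROL, adjusted p = 0.000324), and Plaur, the urokinase receptor, 1.36-fold (adjusted p = 8.88e-05).

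Pan-neuronal genes were lower on balance: of 25 tested, 11 fell and 2 rose (median -0.31). Among these falls, Gap43, Stmn2, Tubb3, Stmn3, Syt1 and Syn1 also count in other lists, so this is not a separate group of genes. Celf4, an RNA-binding protein of excitatory neurons, had 33.1, 42.5, 36.2 and 35.7 CPM in siAtf3, against 111, 113, 135 and 114 CPM in siCONTROL (3.20-fold lower, log2 fold change -1.68 ± 0.083, adjusted p = 5.08e-15). Syt1, the calcium sensor of vesicle release, fell 1.68-fold (adjusted p = 1.68e-07), and the endosomal protein Nsg2 1.55-fold (adjusted p = 2.36e-06). The RNA-binding proteins Elavl4 (1.52-fold) and Rbfox3 (1.39-fold) also fell. Scg2 and Syt4 were the risers.

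Synaptic vesicle genes gave 10 falls and 1 rise of 37 (median -0.14). Sv2c fell 1.43-fold (182 ± 11 CPM in siAtf3 and 261 ± 11.6 CPM in siCONTROL, adjusted p = 1.67e-06). The active zone scaffold Bsn fell 1.46-fold and Slc17a6, the vesicular glutamate transporter of sensory neurons, 1.32-fold (adjusted p = 2.31e-05). Stx1a, Unc13a, Syt9, Vamp2, Syn1 and Syngr1 were called lower too.

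Ion channels moved mostly downward where they moved. Of 16 calcium channel subunits 6 fell and 1 rose (median -0.23). The N-type channel Cacna1b had 48.5, 41.5, 34.3 and 38.6 CPM in siAtf3, against 69.8, 70.3, 66.6 and 80.9 CPM in siCONTROL (1.77-fold lower, adjusted p = 7.93e-05). The P/Q-type channel Cacna1a fell 1.56-fold (adjusted p = 0.00118), Cacnb3 1.43-fold (adjusted p = 1.47e-06) and Cacna2d1, the gabapentin-binding subunit, 1.26-fold (adjusted p = 0.00168). The riser Cacna1e stood at 2.39 to 7.93 CPM in siAtf3 and 1.25 to 1.80 CPM in siCONTROL (adjusted p = 0.0492), and its call was lost without siAtf3 replicate 3, without 5 other libraries, and with another scaling of the libraries (RLE).

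Of 35 potassium and HCN channel genes 7 fell and 1 rose (median -0.14). Kcnt1, a sodium-activated channel of nociceptors, had 8.69, 11.4, 7.93 and 11.6 CPM in siAtf3, against 24.3, 21.8, 23.6 and 20.9 CPM in siCONTROL (2.26-fold lower, adjusted p = 1.32e-06). Kcnh6 fell 2.03-fold and Kcnd3 1.55-fold, while Kcna2, a delayed rectifier, rose 1.68-fold (13.6 ± 1.06 CPM in siAtf3 and 8.02 ± 1.66 CPM in siCONTROL, adjusted p = 0.0105). Of 13 sodium channel genes 2 fell, among them Scn9a, the threshold channel of pain neurons, at 63.9, 73.0, 67.2 and 66.0 CPM in siAtf3, against 94.7, 92.3, 106 and 105 CPM in siCONTROL (1.47-fold lower, adjusted p = 5.26e-06). With siAtf3 replicate 1 or siCONTROL replicate 1 or 2 left out, 1 sodium channel gene fell, and with DESeq2 4. The nociceptor channels Scn10a (adjusted p = 0.0605) and Scn11a (adjusted p = 0.96) did not pass.

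Of 24 sensory transduction channels 4 fell and 1 rose. Piezo2, the channel of light touch, fell 1.40-fold (73.5 ± 5.45 CPM in siAtf3 and 103 ± 7.06 CPM in siCONTROL, adjusted p = 0.000328). Ano1, a calcium-activated chloride channel that heat also opens, was called higher (12.6 ± 3.30 CPM in siAtf3 and 5.86 ± 2.15 CPM in siCONTROL, adjusted p = 0.0298), but its libraries overlapped and its call was lost without any of 5 libraries. Trpv1, the capsaicin receptor, had a log2 fold change of -0.03 ± 0.169 (adjusted p = 0.952).

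Ligand-gated channels gave 5 falls and 1 rise of 27 (median 0.01). The falls numbered 2 without siCONTROL replicate 4, 3 without siAtf3 replicate 3 and 3 with the 8 libraries alone, and the rises 2 without siAtf3 replicate 1 or siCONTROL replicate 4. Chrnb2, a nicotinic subunit, fell 1.61-fold (adjusted p = 2.16e-05), and Gria1, an AMPA receptor subunit, 1.84-fold (adjusted p = 0.00998, lost without siAtf3 replicate 2 or siCONTROL replicate 4). Among GABA-A subunits Gabra2 rose 1.61-fold (22.5 ± 2.60 CPM in siAtf3 and 14.1 ± 2.41 CPM in siCONTROL, adjusted p = 0.0036), whereas Gabra5, at a few CPM, was called lower (adjusted p = 0.0303, lost without any of 3 libraries).

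Receptors for inhibitory ligands and neuropeptides gave 3 falls and 1 rise of 22. Gabbr2, a subunit of the GABA-B receptor, had 15.2, 16.2, 15.3 and 15.7 CPM in siAtf3, against 31.2, 39.9, 34.2 and 33.4 CPM in siCONTROL (2.23-fold lower, adjusted p = 3.1e-10). Qrfpr, a receptor for RF-amide peptides, fell 2.59-fold (adjusted p = 9.71e-07), and the third fall was Cckbr. Cnr1, the cannabinoid receptor, was called higher (1.46-fold, adjusted p = 0.0185, lost without any of 3 libraries).

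Of 23 genes for neurotrophin, GDNF and cytokine signals 5 fell and 0 rose (median -0.25). Ret, the GDNF family receptor kinase, had 349, 395, 295 and 376 CPM in siAtf3, against 543, 539.6, 443 and 522 CPM in siCONTROL (1.44-fold lower, adjusted p = 0.000405). Its artemin co-receptor Gfra3 fell 1.49-fold (adjusted p = 0.000253), and Bdnf, brain-derived neurotrophic factor, 1.69-fold (31.8 ± 3.33 CPM in siAtf3 and 53.7 ± 5.52 CPM in siCONTROL, adjusted p = 1.17e-06). Osmr and Il6ra, receptors of the interleukin 6 family, fell 1.40-fold and 1.79-fold, though Il6ra was not called in a fit of the 8 libraries alone.

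Calls among secreted peptides went both ways, with 5 rises and 6 falls of 43, though the median was -0.23 and 16 members were above 0. Adcyap1, the peptide PACAP that injured neurons induce, had 1060, 1040, 944 and 870.4 CPM in siAtf3, against 1433, 1817, 1606 and 1499 CPM in siCONTROL (1.62-fold lower, adjusted p = 3.06e-05). Gal (galanin), another injury peptide, had 212, 184, 115 and 122 CPM in siAtf3, against 358, 375, 297 and 218 CPM in siCONTROL (1.98-fold lower, adjusted p = 0.0104), a call lost without siAtf3 replicate 3 (adjusted p = 0.0518). Tac1, the precursor of substance P, had 194, 184, 249 and 197 CPM in siAtf3, against 121, 108, 142 and 103 CPM in siCONTROL (1.73-fold, adjusted p = 0.00186). Npy, a further injury peptide (adjusted p = 0.995), and Calca, the precursor of the calcitonin gene-related peptide (adjusted p = 0.34), did not pass.

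Fgf3 fell 3.38-fold (4.05 ± 0.379 CPM in siAtf3 and 13.6 ± 3.76 CPM in siCONTROL, adjusted p = 4.25e-05). The prohormone convertase Pcsk1 fell 1.72-fold (adjusted p = 0.000127) and the activin subunit Inhba 1.84-fold (adjusted p = 0.00113). The stress hormones Gdf15 and Adm2, a calcitonin-family peptide, rose 1.75-fold and 1.78-fold (adjusted p = 0.00184 and 0.00766), beside Fgf21.

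Signalling of the DLK-JNK injury pathway, its phosphatases and RGS proteins gave 10 falls and 2 rises of 28 (median -0.25). Rgs4, which speeds the shut-off of G protein signals, had 363, 345, 334 and 321 CPM in siAtf3, against 1011, 859, 983 and 913 CPM in siCONTROL (2.76-fold lower, log2 fold change -1.47 ± 0.0695, adjusted p = 2.01e-15). Map2k4, a kinase of JNK, fell 1.47-fold (adjusted p = 0.000156). Of the MAP kinase phosphatases 5 fell and 2 rose. Dusp10 fell 1.70-fold (adjusted p = 5.45e-05), Dusp9 1.63-fold (adjusted p = 0.00148), Dusp7 1.44-fold (adjusted p = 0.0188, lost without any of 4 libraries), Dusp14 1.40-fold (adjusted p = 0.00965, lost without siAtf3 replicate 2) and Dusp1 1.19-fold (adjusted p = 0.0134, lost without siAtf3 replicate 2 or siCONTROL replicate 1). Dusp8 rose 1.81-fold (46.5 ± 5.56 CPM in siAtf3 and 25.7 ± 0.458 CPM in siCONTROL, adjusted p = 5.65e-05) and Dusp16 rose 1.69-fold (adjusted p = 3.98e-06).

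The list with the largest share of rises was that of integrated stress response regulators. Of 21 tested, 9 rose and 1 fell, namely Atf3, and the median log2 fold change was 0.31. Nupr1, a stress-induced chromatin protein, had 31.5, 21.3, 32.5 and 32.9 CPM in siAtf3, against 15.9, 9.70, 17.4 and 11.8 CPM in siCONTROL (2.16-fold, adjusted p = 0.000765). Sesn2, which restrains mTORC1, had 53.4, 49.6, 58.7 and 58.0 CPM in siAtf3, against 36.3, 35.5, 37.4 and 35.2 CPM in siCONTROL (1.52-fold, adjusted p = 3.01e-06). Eif2ak3 (PERK), a kinase of eIF2α in the endoplasmic reticulum, rose 1.31-fold (74.9 ± 2.71 CPM in siAtf3 and 57.1 ± 2.21 CPM in siCONTROL, adjusted p = 7.04e-06).

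Chac1, which degrades glutathione, rose 1.59-fold (adjusted p = 0.00144), and Ddit4, Vldlr and Nrbf2 rose 1.29-fold to 1.40-fold, beside Gdf15 and Fgf21. Atf4 itself had 589, 469, 603 and 501 CPM in siAtf3, against 588, 582, 606 and 521 CPM in siCONTROL (log2 fold change -0.09 ± 0.123, adjusted p = 0.733), so its groups overlapped. Trib3 (0.31 ± 0.138, adjusted p = 0.164) and Ppp1r15a (0.33 ± 0.133, adjusted p = 0.118) were above 0 and did not pass.

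Genes of amino acid supply are typical Atf4 targets. Of 18 enzymes of amino acid synthesis and one-carbon metabolism 4 rose and 3 fell (median 0.10), but 1 fell without siAtf3 replicate 1. The falls were Mthfd1l, Got1 and Psat1: the call of Got1 was lost without any of 6 libraries, and that of Psat1 without siAtf3 replicate 1. Aldh1l2, a mitochondrial folate dehydrogenase, had 27.3, 24.6, 29.8 and 25.6 CPM in siAtf3, against 8.09, 11, 10.3 and 10.4 CPM in siCONTROL (2.67-fold, log2 fold change 1.42 ± 0.173, adjusted p = 7.78e-07). Shmt2, a serine hydroxymethyltransferase, rose 1.39-fold (adjusted p = 0.00134), and Pycr1, of proline synthesis, 1.89-fold (adjusted p = 0.0126, lost without siCONTROL replicate 2). Mthfd1l, another mitochondrial folate enzyme, fell 1.53-fold (adjusted p = 4.79e-05), and Asns, asparagine synthetase, did not pass (log2 fold change 0.01 ± 0.0581, adjusted p = 0.971).

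Of 14 amino acid transporters 2 rose. Slc1a4, a transporter of neutral amino acids, had 125, 124, 119.6 and 121 CPM in siAtf3, against 76.1, 75.9, 76.0 and 77.6 CPM in siCONTROL (1.60-fold, log2 fold change 0.68 ± 0.0563, adjusted p = 9.51e-10). Slc7a1, a cationic amino acid transporter, rose 1.37-fold (adjusted p = 3.31e-05). Of 20 tRNA synthetases 2 rose, Eprs (1.24-fold, adjusted p = 1.93e-05) and Sars (1.19-fold, adjusted p = 0.0165, lost without any of 3 libraries).

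Chaperones of the endoplasmic reticulum gave 5 rises and 3 falls of 21 (median 0.06). Beside Hspa5, Herpud1, which acts in degradation from the reticulum, rose 1.58-fold (136 ± 12.1 CPM in siAtf3 and 85.5 ± 4.71 CPM in siCONTROL, adjusted p = 0.000363). Sdf2l1, a cofactor of Hspa5, fell 1.32-fold (adjusted p = 0.000576). With RLE scaling 3 members of this list rose, and with 1 library left out 2 to 4, lowest without siCONTROL replicate 3. Without siAtf3 replicate 1 or 2, 1 member fell.

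Of 20 NRF2 antioxidant genes 4 rose and 4 fell, but 2 fell without siAtf3 replicate 2 or 3, and 1 with the 8 libraries alone. The factor itself, Nfe2l2, rose 1.28-fold (adjusted p = 0.000765) and Hmox1, heme oxygenase 1, 1.39-fold (319 ± 38.5 CPM in siAtf3 and 229.8 ± 22.2 CPM in siCONTROL, adjusted p = 0.000321). Of 30 p53 targets and BCL2 family genes 2 rose and 2 fell: Hrk, a pro-apoptotic BH3 protein of neurons, rose 2.42-fold (5.89 ± 1.92 CPM in siAtf3 and 2.43 ± 0.302 CPM in siCONTROL, adjusted p = 0.000252), and Gadd45g fell 1.66-fold (adjusted p = 0.000451).

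Lipid and energy metabolism showed single large changes without a shift of a list. In peroxisome and fatty acid oxidation 2 rose and 3 fell of 34 (median 0.06): Cpt2, the mitochondrial carnitine acyltransferase, had 8.69, 6.52, 6.04 and 7.34 CPM in siAtf3, against 22.8, 17.2, 18.3 and 23.6 CPM in siCONTROL (2.84-fold lower, adjusted p = 1e-05), whereas Acox2 and the thioesterase Acot2 rose. Fads1, the Δ5 fatty acid desaturase, fell 1.98-fold (48.6 ± 5.58 CPM in siAtf3 and 96.2 ± 8.53 CPM in siCONTROL, adjusted p = 1.17e-08). In cholesterol synthesis Dhcr7, the last enzyme of one branch, rose 1.64-fold (adjusted p = 0.000164), and Insig1, the brake of SREBP processing, fell 1.51-fold (adjusted p = 8.24e-07). The monocarboxylate transporter Slc16a1 rose 1.76-fold (adjusted p = 6.28e-07).

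The 13 mitochondrially encoded genes gave 0 calls with edgeR, though each had a log2 fold change above 0 (median 0.17). Their summed level was 30210 to 44430 CPM in siAtf3 and 23040 to 36390 CPM in siCONTROL, which overlap.

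Transcription factors were examined by family. Of 15 ATF and CREB factors, Atf6, a sensor of stress in the endoplasmic reticulum, rose (47.3, 48.3, 50.2 and 47.4 CPM in siAtf3, against 33.3, 36.9, 35.4 and 37.1 CPM in siCONTROL, 1.35-fold, adjusted p = 5.83e-05). Crem fell 1.39-fold (adjusted p = 0.00184), and the call of Creb5 (1.48-fold higher, adjusted p = 0.0352) was lost without any of 5 libraries. Of 13 AP-1 subunits, which are Atf3's dimer partners and their relatives, 1 rose: the small Maf protein Mafk (1.30-fold, adjusted p = 0.00685, lost without siAtf3 replicate 3). Of 4 C/EBP factors tested none was called, and their log2 fold changes were all above 0 (median 0.16).

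Of 21 growth-linked factors 5 fell and 1 rose, with Klf9 (1.43-fold lower, adjusted p = 0.000324), Klf7 (1.32-fold lower, adjusted p = 0.000432) and Id2 (1.52-fold lower, adjusted p = 0.00903) beside Sox11 and Klf6. The single rise was lost without siAtf3 replicate 1 or 3 or siCONTROL replicate 4. Of 25 factors that define sensory neurons 4 fell and 0 rose (median -0.10). Onecut2 had 4.45, 6.04, 4.91 and 6.31 CPM in siAtf3, against 12.3, 12.4, 11.4 and 15.8 CPM in siCONTROL (2.36-fold lower, adjusted p = 7.84e-06). Prdm12, needed for nociceptors to form, fell 1.58-fold (adjusted p = 0.00162), Isl1 1.54-fold (adjusted p = 0.00273) and Tlx2 1.46-fold (adjusted p = 0.00353).

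Markers of the sensory neuron classes gave few calls each. Among 11 markers of non-peptidergic nociceptors 1 rose and 1 fell, among 15 of peptidergic nociceptors 1 rose and 2 fell, among 7 of Sst-positive itch neurons 0 rose and 1 fell, among 8 of C-fibre touch neurons 0 rose and 3 fell, and among 18 of large myelinated neurons 0 rose and 1 fell. The called members were mostly genes already named, such as Ret, Tac1, Gal, Osmr, Piezo2 and Nefl. The 3 falls of the C-fibre list became 1 without siAtf3 replicate 1 or 2 or siCONTROL replicate 2, the 2 falls of the peptidergic list became 1 without siAtf3 replicate 3, and that of the large-neuron list was lost with Nefl.

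The summed level of all members, which weighs abundant genes most, was lower in siAtf3 without overlap in 3 of the 5 classes. Non-peptidergic markers summed to 954.5 to 1003 CPM in siAtf3 and 1167 to 1219 CPM in siCONTROL. Peptidergic markers summed to 3585 to 3889 CPM in siAtf3 and 4133 to 4910 CPM in siCONTROL. C-fibre touch markers summed to 214 to 250.4 CPM in siAtf3 and 253 to 294 CPM in siCONTROL. The sums overlapped for the Sst-positive class (586 to 742 CPM in siAtf3 and 492 to 645 CPM in siCONTROL) and for large myelinated neurons (3660 to 6478 CPM in siAtf3 and 4684 to 7787 CPM in siCONTROL). The sums of the 3 non-overlapping classes overlapped once their called members were left out. Non-peptidergic markers then summed to 515.5 to 661.2 CPM in siAtf3 and 599.7 to 744.1 CPM in siCONTROL. Peptidergic markers summed to 2365 to 2480 CPM in siAtf3 and 2258 to 2865 CPM in siCONTROL. C-fibre touch markers summed to 116.6 to 152.5 CPM in siAtf3 and 119.7 to 153.4 CPM in siCONTROL. These sums leave out the called members, so their overlap is no check of its own. The part of a shift in neuron classes in the other results was not tested.

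Markers of other cells were measured as a check on the make-up of the cultures. Of 12 satellite glia markers Glul, glutamine synthetase, fell 2.17-fold (184, 200.04, 149.8 and 166 CPM in siAtf3, against 391, 443, 299.6 and 383 CPM in siCONTROL, adjusted p = 2.94e-08). All 12 summed to 582 to 744 CPM in siAtf3 and 789 to 929.9 CPM in siCONTROL, which do not overlap, and the 11 without Glul to 398 to 594 CPM in siAtf3 and 346 to 565 CPM in siCONTROL, which do. Of 13 Schwann cell markers Pmp22, a peripheral myelin protein, fell 1.44-fold (adjusted p = 0.000106). All 13 summed to 1289 to 1561 CPM in siAtf3 and 1697 to 1995 CPM in siCONTROL, which do not overlap, and the 12 without Pmp22 to 670 to 921 CPM in siAtf3 and 802 to 1114 CPM in siCONTROL, which do. With DESeq2, and without siAtf3 replicate 2 or siCONTROL replicate 3, 2 Schwann cell markers were called lower. The sums without Glul or Pmp22 leave out the member that was called, so their overlap is no check of its own. The part of glia in the other results was not tested.

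Of 9 fibroblast markers and 12 proliferation markers none was called by edgeR, while 1 fibroblast marker was called lower by DESeq2 and by limma-trend. Of 12 endothelial and mural markers Rgs5 fell 1.55-fold (adjusted p = 3.24e-06). Of 16 macrophage and leukocyte markers 5 were abundant enough to test, and the defining markers C1qa, Cx3cr1, Ptprc and Itgam were not among them. Csf1r, the macrophage growth factor receptor, was called lower (1.39 ± 0.751 CPM in siAtf3 and 4.40 ± 1.43 CPM in siCONTROL, adjusted p = 0.0133, lost without siAtf3 replicate 2), and the 5 summed to 39.1 to 55.4 CPM in siAtf3 and 38.1 to 55.6 CPM in siCONTROL. Such a sum weighs abundant genes most. The median log2 fold change of the 5 was -0.56, with 1 of them above 0, and against the other knockdowns their median was -0.63. The part of such cells in Aim2, Pilra and Mmp12 was not tested.

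Interferon-response genes gave 1 rise (Gbp3) and 1 fall (Aim2) of 39, though 35 had a log2 fold change above 0 and the median was 0.54. Isg15, a ubiquitin-like antiviral protein, had 9.70, 21.8, 42.5 and 12.6 CPM in siAtf3, against 6.29, 9.70, 14.7 and 7.42 CPM in siCONTROL (log2 fold change 1.14 ± 0.611, adjusted p = 0.267). Ifit1 had 4.65, 11.1, 26.0 and 8.87 CPM in siAtf3, against 4.20, 4.23, 6.15 and 3.24 CPM in siCONTROL (adjusted p = 0.231). In both genes siAtf3 replicate 3 was the highest library. The call of Gbp3 (2.41-fold higher, adjusted p = 0.0249) was lost without siAtf3 replicate 3 and without 3 other libraries. Against the other 6 knockdowns the median of the 39 was -0.14, and 0 members were higher and 3 lower.

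Which changes set siAtf3 apart from transfection with any targeting pool was examined by comparing siAtf3 with the mean of the 24 libraries of siAtf4, siJun, siStat3, siKlf6, siRest and siAlyref. In that comparison 1224 genes were higher and 1389 lower in siAtf3 (8.23% and 9.34% of genes tested). Of all genes, 487 were called higher (3.27%) and 949 lower (6.38%) in both comparisons. The comparisons share the siAtf3 libraries, so the second is no independent repeat of the first, and genes regulated by 1 of the other targets enter its mean.

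Cyb5r2 averaged 31.2 CPM in siAtf3 and 2.45 to 13.1 CPM over the other 6 knockdowns (4.27-fold higher than their mean on the log scale, adjusted p = 2.9e-11). Prrg4 averaged 50.1 CPM in siAtf3, with 24.7 CPM in siStat3 as the next highest and 8.63 CPM in siKlf6 as the lowest (3.42-fold, adjusted p = 1.2e-11). Extl1 averaged 9.57 CPM in siAtf3 and 0.601 to 4.94 CPM in the others, with siJun the highest of them (4.28-fold, adjusted p = 6e-07). Star averaged 196 CPM in siAtf3, 147 CPM in siStat3 and 19.1 CPM in siJun (3.5-fold, adjusted p = 5.8e-11). For these 4 genes no other knockdown reached the siAtf3 mean.

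Trim66, a chromatin reader, averaged 15.4 CPM in siAtf3 and 1.14 to 10.3 CPM in the others (3.5-fold, adjusted p = 5.2e-10). AA467197 was 5.46-fold higher than the mean of the others (adjusted p = 4.1e-06), but its call against siCONTROL was lost without any of 5 libraries. Some large changes were shared with another knockdown: Fgf21 averaged 12.6 CPM in siAtf3, 19.8 CPM in siJun and 0.200 CPM in siAtf4, and Pilra averaged 0.959 CPM in siAtf3, 1.5 CPM in siJun and 7.5 to 14.8 CPM in the other 5. Sprr1a was likewise low in siAtf3 (154 CPM) and siJun (112 CPM), and it averaged 196 CPM in siStat3, where all 4 libraries (178 to 219 CPM) were below the lowest siCONTROL library. The other 4 knockdowns averaged 308 to 477 CPM.

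Csrp3 averaged 0.677 CPM in siAtf3 and 8.04 to 20.9 CPM in the other knockdowns (17.4-fold lower, adjusted p = 0.00018). Celf4 averaged 36.9 CPM in siAtf3 and 69.6 to 125 CPM in the others (2.83-fold lower, adjusted p = 9.2e-16), and Rgs4 averaged 341 CPM in siAtf3 and 529 to 1194 CPM in the others (2.37-fold lower, adjusted p = 9.2e-16). Htr2b, a serotonin receptor, was 7.81-fold lower than their mean (adjusted p = 0.0013), but stood at 0 to 0.944 CPM in siAtf3 and 0.899 to 5.33 CPM in siCONTROL, which overlap. In siJun Htr2b was as low, at 0.345, 0.707, 0 and 0 CPM, so its fall was not particular to siAtf3. Psg29 had 0 counts in all siAtf3 libraries and 0.342 to 1.25 CPM in siCONTROL, at least 4.96-fold lower against 3 counts over the siAtf3 group, and was not called by DESeq2. It was scarce in siJun too, at 0.172 to 0.707 CPM.

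**Figure D5:**
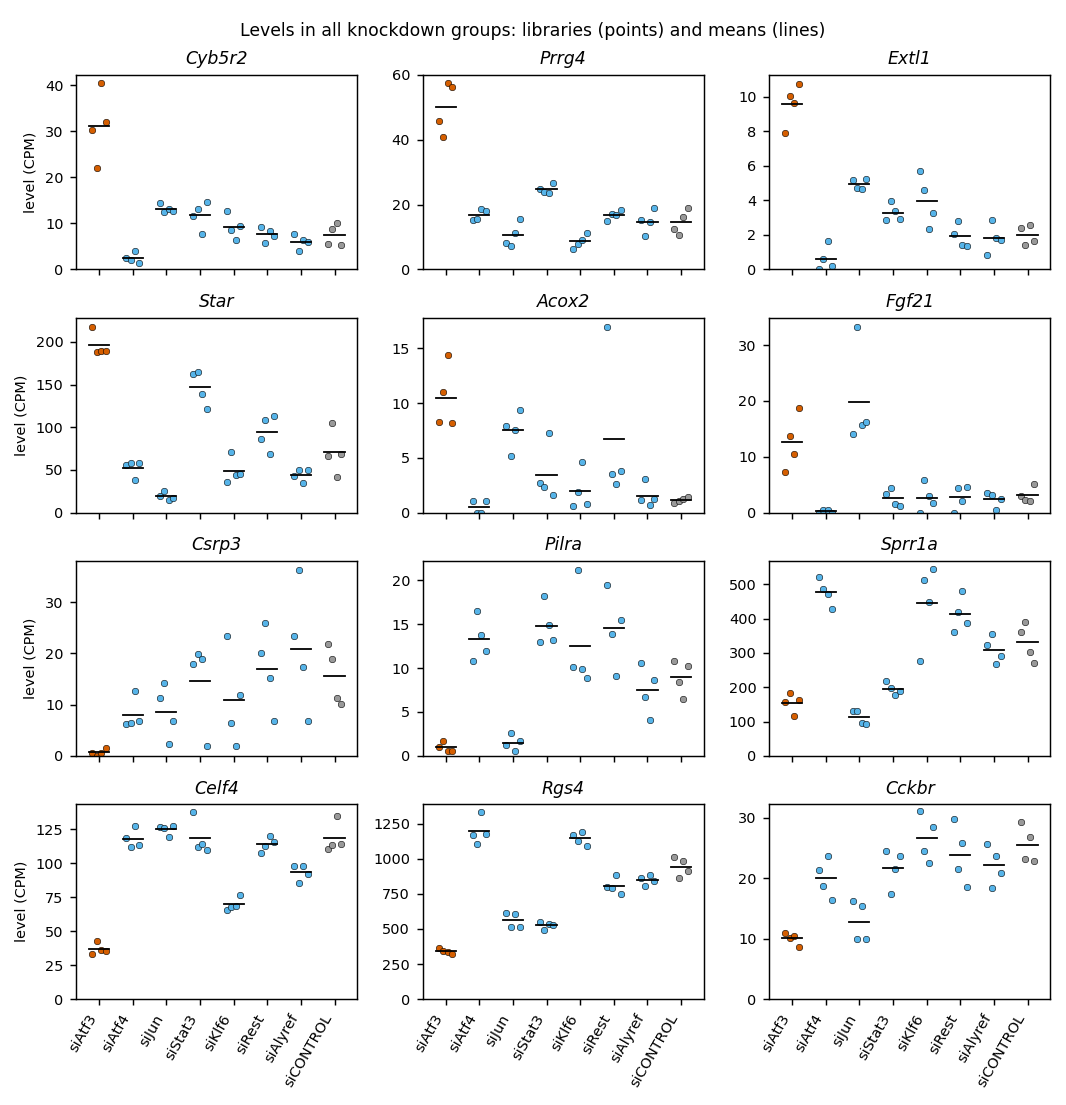
Level in CPM (vertical axes, from 0) of 12 genes in the 4 libraries (points) of each knockdown and of siCONTROL, with group means as lines; siAtf3 is orange and siCONTROL grey. Cyb5r2, Prrg4, Extl1 and Star are highest and Csrp3, Pilra, Celf4, Rgs4 and Cckbr lowest in siAtf3, while Fgf21 is highest and Sprr1a lowest in siJun.

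Atf3 and its relatives bind TGACGTCA (the CRE) and TGANTCA (the AP-1 site), and dimers of ATF and C/EBP factors bind TGATGNAA. Promoters were searched for these letters on both strands, since members that moved may share them. The windows run from 250 bases before to 50 after the annotated start, from RefSeq on GRCm38.p6, and existed for 852 genes that fell, 476 that rose and 11050 of all tested. Only the first window listed for a symbol was searched. In the source 4163 symbols had more than 1, so sites at other starts of a gene were not seen. TGACGTCA occurred in 3.29% of promoters of genes that fell and 5.25% of those of genes that rose, against 3.28% of all. TGANTCA occurred in 5.16% of promoters of genes that fell and 6.93% of those of genes that rose, against 5.29% of all. TGATGNAA occurred in 2.00% of promoters of genes that fell and 4.41% of those of genes that rose, against 2.30% of all. No match of TGACGTCA is also a match of TGANTCA. A match is a description of the letters, not of binding.

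Of 35 genes named for their size of change, 30 had a promoter in the table and 5 held TGACGTCA or TGANTCA. They are printed 5′ to 3′ on the strand of the gene with the match in capitals, because they are the large changes whose promoters carry a motif Atf3 can bind. Hspa5 lies at chr2:34771840-34772139 on the plus strand, Scg2 at chr1:79439977-79440276 on the minus strand, Acox2 at chr14:8258970-8259269 on the minus strand, Ddit3 at chr10:127290543-127290842 on the plus strand and Sprr2i at chr3:92407741-92408040 on the plus strand. Scg2 holds the CRE, which starts 68 bases before the annotated start. The other 4 hold the AP-1 site, which starts 182 bases before it in Hspa5, 11 in Acox2, 242 in Ddit3 and 193 in Sprr2i.
Hspa5: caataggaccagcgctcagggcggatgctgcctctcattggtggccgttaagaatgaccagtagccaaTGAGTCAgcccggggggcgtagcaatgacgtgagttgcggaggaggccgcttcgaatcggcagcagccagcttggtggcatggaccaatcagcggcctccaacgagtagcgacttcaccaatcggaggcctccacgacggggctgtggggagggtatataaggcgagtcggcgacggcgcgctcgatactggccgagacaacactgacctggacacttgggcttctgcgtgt
Scg2: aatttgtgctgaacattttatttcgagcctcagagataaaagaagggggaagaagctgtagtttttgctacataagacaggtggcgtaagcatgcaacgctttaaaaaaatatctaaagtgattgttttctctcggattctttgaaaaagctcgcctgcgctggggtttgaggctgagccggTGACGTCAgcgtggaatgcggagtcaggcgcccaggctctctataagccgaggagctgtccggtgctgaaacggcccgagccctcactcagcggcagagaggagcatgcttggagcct
Acox2: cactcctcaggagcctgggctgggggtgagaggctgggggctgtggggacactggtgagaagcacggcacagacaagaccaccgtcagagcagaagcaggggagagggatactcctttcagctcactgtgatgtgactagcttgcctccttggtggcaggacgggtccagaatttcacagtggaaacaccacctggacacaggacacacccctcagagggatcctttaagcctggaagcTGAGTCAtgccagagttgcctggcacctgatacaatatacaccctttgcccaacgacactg
Ddit3: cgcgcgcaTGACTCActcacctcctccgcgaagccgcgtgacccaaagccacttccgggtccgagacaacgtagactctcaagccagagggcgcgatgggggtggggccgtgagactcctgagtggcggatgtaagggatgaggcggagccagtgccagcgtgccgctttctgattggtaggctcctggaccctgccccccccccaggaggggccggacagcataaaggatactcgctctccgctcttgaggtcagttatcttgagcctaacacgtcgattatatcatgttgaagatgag
Sprr2i: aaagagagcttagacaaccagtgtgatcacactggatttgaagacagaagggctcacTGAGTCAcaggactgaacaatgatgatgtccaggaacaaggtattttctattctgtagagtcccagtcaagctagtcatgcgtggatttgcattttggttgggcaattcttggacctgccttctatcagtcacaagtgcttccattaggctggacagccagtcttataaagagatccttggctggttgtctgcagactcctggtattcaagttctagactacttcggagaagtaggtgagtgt
Of these, Hspa5, Scg2, Acox2 and Ddit3 rose and Sprr2i fell.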

How the data were processed

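The 8 libraries were poly(A) RNA made with a stranded mRNA kit, per the labels' protocols. The authors deposited expected counts (estimates with decimals, 1 value for each gene), and the submitters' processing notes name kallisto and the mouse build GRCm39. Which version of kallisto, which annotation and which scaling were used is not given in the sources used. The values may be weighted by transcript length, so levels are not compared between genes.

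Symbols came from a GENCODE table of GRCm38, which matched 95% of 34183 identifiers. Counts were rounded, filtered with filterByExpr and scaled by TMM. The 7 knockdowns and siCONTROL (32 libraries, 24 residual degrees of freedom) were fitted together, so they share 1 estimate of the spread, with edgeR 4.0.16 in R 4.3.3 (quasi-likelihood F test, Benjamini-Hochberg adjustment, threshold 0.05). Levels are CPM. Alternatives were RLE scaling, no filter, DESeq2 1.42.0, limma-trend (limma 3.58.1), the 8 libraries alone, the replicate number as a block, and each library left out.

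On simulated data of this comparison with 14876 genes, the test recovered 31.8% of genes changed 1.5-fold, 74.6% of those changed 2-fold and 89.2% of those changed 4-fold, with 4 false calls among 133. Only 66, 67 and 65 genes were changed at these folds, in siAtf3 alone and with no spread shared by replicate number. Far more genes were called in the real data, so these rates need not hold there. The named genes are Atf3, the 12 largest rises and falls by fold without overlap and with at least 2 CPM in the higher group, of the same non-overlapping genes the 6 largest gains and losses in CPM, up to 4 called members a list by adjusted p, and the 8 largest in each direction against the other knockdowns. The rule leaves unnamed the Gm and Rik genes. Other list members are named with their list. The gene lists and the rule were chosen with earlier results of these data known.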

Additional observations from a re-analysis of the deposited data

Results flagged for a closer look

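In groups of 4 libraries, a library was singled out where its gap to the nearest of the other 3, divided by the range of the group, was above Dixon's 95% critical value for 4 samples. This held for 28 of the 332 groups examined (8.43%). Chance singles out about 1 in 20 groups of normally distributed values. That rate need not hold here, since a gene with counts in 1 library only is always singled out and the genes were chosen by their results. No cause was tested.

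Among genes near 0 in siAtf3, Sprr2i had 1.431 CPM in replicate 2, Lce1a2 1.415 CPM in replicate 1, Speer4e 0.6064 CPM in replicate 1 and AC110262.1 0.7951 CPM in replicate 2, while the other 3 siAtf3 libraries of each gene had 0. Trpm1 had 0.8085 CPM in siAtf3 replicate 1, and the nearest siAtf3 library had 0.1887 CPM.

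In siAtf3 replicate 1, Star had 218.1 CPM (nearest siAtf3 library 188.9) and Tmsb4x 2111 CPM (nearest 1862). In siAtf3 replicate 2, Klf7 had 119.1 CPM (nearest 107.0), Bsn 31.64 CPM (nearest 26.07) and Plxna4 90.95 CPM (nearest 80.95), while Nupr1 was lowest there at 21.31 CPM (nearest 31.53). In siAtf3 replicate 3, Hspa5 had 1387 CPM (nearest 1269) and Myo10 62.27 CPM (nearest 43.67). In siAtf3 replicate 4, Creb5 had 10.41 CPM (nearest 8.492), Mmp19 28.83 CPM (nearest 24.72) and Dhcr7 122.7 CPM (nearest 110.0), while Eprs was lowest there at 204.2 CPM (nearest 213.7).

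In siCONTROL replicate 1, Rasal1 was lowest at 3.296 CPM (nearest siCONTROL library 5.794). In siCONTROL replicate 2, Lce1a2 had 7.825 CPM (nearest 2.393), Casz1 41.47 CPM (nearest 29.44), Pcsk1 84.04 CPM (nearest 69.53) and Kif22 200.3 CPM (nearest 144.1), while Fads1 was lowest there at 83.57 CPM (nearest 98.74). In siCONTROL replicate 3, Celf4 had 134.8 CPM (nearest 114.3), Ano3 42.21 CPM (nearest 29.97) and Psat1 189.7 CPM (nearest 166.6), while Eprs was lowest there at 167.0 CPM (nearest 172.0). In siCONTROL replicate 4, Slc1a4 had 77.65 CPM (nearest 76.12).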

How the results depend on the processing

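Under 6 other ways of fitting, the number of genes called higher and lower in siAtf3 was 558 and 1158 with RLE scaling, 443 and 915 without a filter on low counts, 566 and 1225 with DESeq2, 531 and 1069 with limma-trend, 430 and 912 with the 8 libraries alone, and 798 and 1425 with the replicate number as a block, against 595 and 1114. The deviations of same-numbered siAtf3 and siCONTROL libraries from their group means correlated by 0.05, 0.07, 0.10 and 0.06. Differently numbered libraries correlated by -0.08 to 0.07. siAtf3 replicate 1 correlated more with siCONTROL replicate 2 (0.07) than with replicate 1 (0.05). The siAtf3 replicates 2, 3 and 4 correlated most with the siCONTROL library of their own number. No label says what the numbers mark, so they were not taken as pairs and the block gives no main value. Whether same-numbered libraries share a source was not tested. Leaving out 1 library gave 422 to 476 genes higher, lowest without siCONTROL replicate 1, and 875 to 1080 lower. The log2 fold change of Atf3 was -2.59 to -2.43. Leaving out siAtf3 replicate 3 gave the lowest counts against the other 6 knockdowns, 878 higher and 1070 lower. No named gene changed direction under any of these settings, and the median log2 fold change of all genes stayed within 0.0146 of 0. A count of list members has no direction to change, and the balance of rises and falls in a list could shift, as given with the lists. Of 258 genes named or called in a list, 208 to 232 kept their call when a library was left out. Scarce genes are the least certain: at a few CPM a library held under 100 reads of a gene.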
